A study of Mus musculus with 6 samples.

Results

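The EGF ligand and ErbB receptor genes were compared between adenomas of 2 mouse models of intestinal polyposis. The group holds 10 genes, the receptors *Egfr*, *Erbb2* and *Erbb3*, the ligands *Ereg*, *Areg*, *Tgfa*, *Btc* and *Egf*, and the receptor inhibitors *Lrig1* and *Errfi1*. They were chosen by gene symbol from the 34866 genes of the count table, and all 10 had enough reads to be among the 16536 genes tested. Both groups were C57BL/6J mice aged between 100 and 120 days, heterozygous for a germline *Apc* mutation that every cell of the body carries. The truncated Apc protein of ApcMin/+ mice is short and lacks the repeats that bind β-catenin, whereas that of Apc1322T/+ mice is longer and keeps some of them. There were 3 libraries of each genotype, each from adenomas excised whole, for which RNA extractions from a single mouse were typically pooled. Normal intestine is not analysed here, so that the values compare adenomas with adenomas.

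EGF family ligands are made as membrane-bound precursors, are released by metalloproteases of the ADAM family, and bind ErbB receptor tyrosine kinases, which pair up and signal through Ras-MAPK and PI3K. In the small intestine this signal drives the division of crypt cells, and EGF is a standard ingredient of intestinal organoid medium. Areg, Tgfa and Egf bind Egfr, whereas Ereg and Btc bind both Egfr and Erbb4. Erbb2 has no known ligand of its own and acts as a partner, and Erbb3 has a weak kinase and is activated by neuregulins in such pairs.

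The ligands share the EGF-like module, whose 6 cysteines form the disulphide bonds that hold it in shape. Its coding sequence is printed for the 5 ligands of the group, as it is what makes them a family and shows how far their reads can be told apart. Each was found in the longest coding transcript of GENCODE M21 as 6 cysteine codons separated by 7, by 4 or 5, by 10 to 13, by 1 and by 8 codons, and this pattern occurred once in each of the 5 genes. The cysteine codons are in capitals.
Ereg: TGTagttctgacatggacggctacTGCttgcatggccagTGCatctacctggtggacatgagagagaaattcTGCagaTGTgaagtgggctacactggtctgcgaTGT
Areg: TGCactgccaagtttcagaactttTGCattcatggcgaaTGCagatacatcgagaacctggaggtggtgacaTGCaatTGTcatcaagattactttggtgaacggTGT
Tgfa: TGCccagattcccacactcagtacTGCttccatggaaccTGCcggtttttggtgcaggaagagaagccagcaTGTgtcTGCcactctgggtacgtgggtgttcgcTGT
Btc: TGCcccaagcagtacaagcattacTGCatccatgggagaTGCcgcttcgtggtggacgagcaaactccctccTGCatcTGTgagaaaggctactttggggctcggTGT
Egf: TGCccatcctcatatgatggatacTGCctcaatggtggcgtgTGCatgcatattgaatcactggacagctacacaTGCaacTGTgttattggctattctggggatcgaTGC
These stretches lie at chr5:91088496-91089111 for *Ereg*, chr5:91143614-91144364 for *Areg*, chr6:86263200-86269960 for *Tgfa* (all on the plus strand), chr5:91362421-91366197 for *Btc* and chr3:129686322-129690850 for *Egf* (both on the minus strand) of GRCm38, and each is split over 2 coding exons. Between the 4 modules of 108 bases, those of *Ereg*, *Areg*, *Tgfa* and *Btc*, the share of identical bases ranged from 45.4% (*Ereg* and *Tgfa*) to 62.0% (*Tgfa* and *Btc*). The longest run shared by the transcripts of any 2 of 11 ligand genes was 21 bases, and 22 bases for the 4 receptor genes, so that no read of 50 bases can match 2 genes of a family without a mismatch. *Epgn*, *Ereg*, *Areg* and *Btc* lie side by side on chromosome 5 (chr5:91027464-91402994, 375.5 kb), with no other protein-coding gene between them.

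None of the 10 genes differed between ApcMin and Apc1322T adenomas at an adjusted p under 0.01 in the quasi-likelihood test of edgeR. The percentage of all tested genes that did was 0.00, and at an adjusted p under 0.05, which again none of the 10 reached, it was 0.00605. The smallest adjusted p of the 10 was 0.334 (*Erbb3*), and 0 of the 10 had an unadjusted p under 0.05, against 15.1% of all genes tested. DESeq2's Wald test, run without the filter on low counts, also called 0 of the 10 at an adjusted p under 0.01 (1.11% of 17503 genes). It had 2 of them, *Erbb3* and *Ereg*, at an unadjusted p under 0.05. So were 11.5% of the 25171 genes in that test, and 2751 of the 16536 genes tested in edgeR. The libraries of the genotypes overlapped for all 10 genes, whereas they did not for 21.0% of all genes tested. The two-sided exact permutation test of each gene's log2 CPM, whose smallest p in groups of 3 is 0.10, gave p between 0.20 and 0.90, unadjusted for the 10 tests. Of the 10 log2 fold changes, 5 were above and 5 below 0, where a positive value denotes a higher level in ApcMin adenomas. The median absolute log2 fold change was 0.20 for the 10 genes and 0.21 for all tested genes. When Apc1322T replicate 1 was left out, *Erbb2*, *Erbb3* and *Ereg* came to an unadjusted p under 0.05 (24.4% of all genes did so in that fit). Without ApcMin replicate 2 these were *Erbb3* and *Ereg* (12.6% of all genes), and without ApcMin replicate 3 it was *Egfr* (9.87% of all genes). There was none of the 10 at that p without Apc1322T replicate 2 (6.92% of all genes) or replicate 3 (8.63%).

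**Figure D1:**
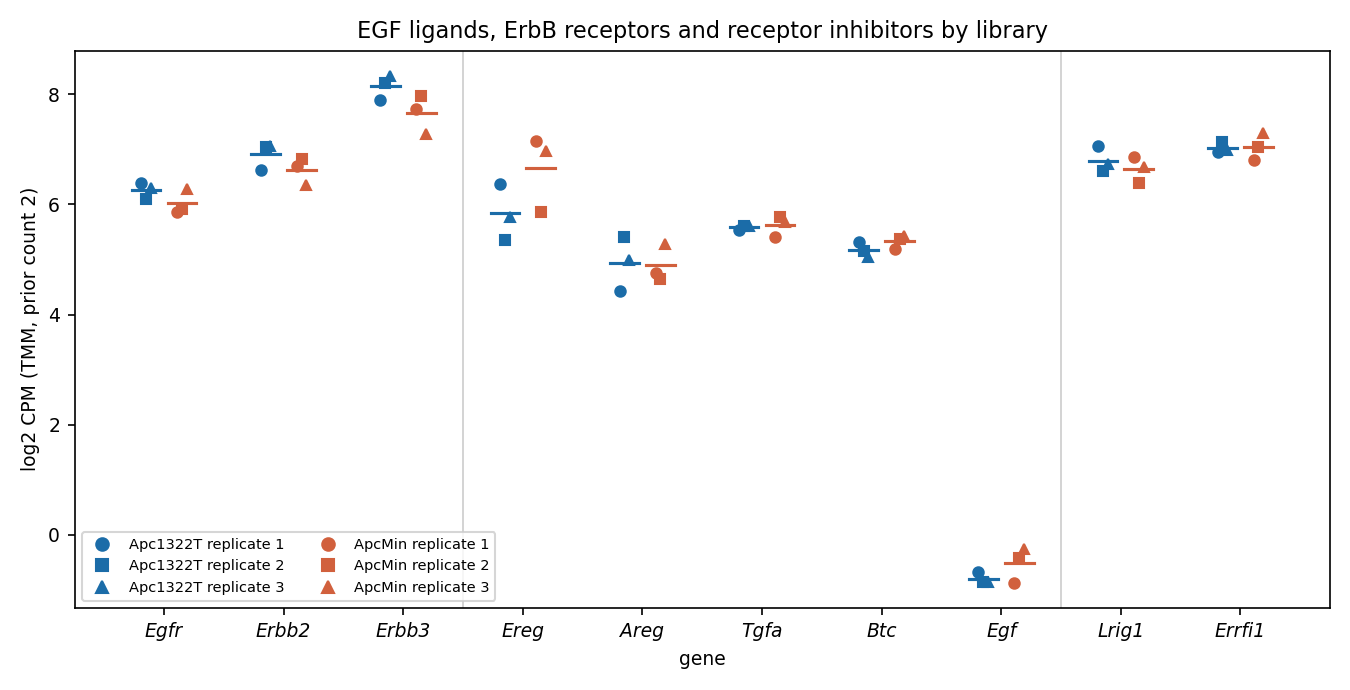
Log2 CPM (counts scaled to a common library size with TMM factors, vertical axis) of each gene (horizontal axis) in the 6 adenoma libraries, with a point per library and a bar at the mean of each genotype. The points of the genotypes overlap for every gene, *Ereg* spreads most, and *Egf* lies far below the rest. Heights of different genes are not corrected for gene length.

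*Ereg* (chr5:91074622-91093646, plus strand), which encodes epiregulin, varied most between the libraries. Its counts were 2258, 858 and 1253 in Apc1322T replicates 1, 2 and 3 and 5112, 1473 and 3956 in ApcMin replicates 1, 2 and 3. On the log2 CPM scale these were 6.37, 5.35 and 5.78 against 7.16, 5.86 and 6.97. Replicates 1 and 3 of ApcMin lay above all the Apc1322T libraries, whereas ApcMin replicate 2 lay among them. The highest library exceeded the lowest 3.50-fold, and 12.2% of the tested genes had a larger SD over the 6 libraries than *Ereg* (0.71 on the log2 scale). The log2 fold change was 0.87 (standard error 0.40, 95% interval -0.10 to 1.84, adjusted p = 0.360 by edgeR), a level in ApcMin adenomas 1.82-fold that in Apc1322T adenomas with an interval from 0.932 to 3.57. Fits without 1 of the libraries gave between 0.62 and 1.19.

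*Areg* (chr5:91139599-91148432, plus strand), the gene for amphiregulin, starts 46 kb beyond the end of *Ereg* and had another order of libraries. Its log2 CPM was 4.42, 5.40 and 4.99 in the Apc1322T libraries and 4.75, 4.65 and 5.27 in the ApcMin libraries. The highest and the lowest library were both of the Apc1322T genotype, so that the genotypes overlapped fully. The log2 fold change was -0.07 (standard error 0.28, 95% interval -0.75 to 0.60), and its direction turned in 3 of the 6 fits that left out a library. *Btc* (chr5:91357261-91402994, minus strand), at the far end of the cluster and coding for betacellulin, was nearly level over the libraries, with a log2 CPM of 5.32, 5.16 and 5.05 in Apc1322T and 5.20, 5.37 and 5.43 in ApcMin adenomas. Its log2 fold change was 0.15 (standard error 0.11, 95% interval -0.10 to 0.41). *Epgn*, the first gene of the cluster, which encodes epigen, had between 7 and 49 counts per library. Its log2 fold change of 0.82 (95% interval -0.54 to 2.19) was of the size of that of *Ereg*, with far fewer counts behind it.

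*Tgfa* (chr6:86195223-86275719, plus strand), which encodes transforming growth factor α, varied least of the 10 genes. Its log2 CPM was 5.54, 5.61 and 5.61 in the Apc1322T libraries and 5.41, 5.78 and 5.68 in the ApcMin libraries. The ApcMin libraries lay on both sides of the Apc1322T libraries, and 81.1% of the tested genes had a larger SD. The log2 fold change of 0.04 had a 95% interval from -0.22 to 0.31, which leaves room for a fold of between 0.857 and 1.24, and its direction turned without ApcMin replicate 2. *Egf* itself (chr3:129677565-129755316, minus strand) was barely present, with 15, 10 and 11 counts in the Apc1322T and 17, 17 and 24 in the ApcMin libraries, above the 3 counts taken as the smallest signal. The interval of its log2 fold change (0.33, from -0.55 to 1.20) is the widest of the 5 ligands but for that of *Ereg*. Antisense genes overlap *Egf* in the annotation, and although the kit keeps the strand, the strand setting of the quantification is not given in the sources used here. The same limit holds for *Egfr*, *Erbb2*, *Ereg*, *Tgfa*, *Lrig1* and *Errfi1*, which genes on the other strand also overlap. Those over *Erbb2* and *Lrig1* include protein-coding genes, *Mien1* and *Slc25a26*.

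The receptors had log2 fold changes below 0. *Erbb3* (chr10:128567523-128589652, minus strand) was the receptor with the highest level per length, and its log2 CPM was 7.90, 8.21 and 8.33 in the Apc1322T libraries and 7.73, 7.97 and 7.27 in the ApcMin libraries. Apc1322T replicates 2 and 3 lay above every ApcMin library, and Apc1322T replicate 1 lay below ApcMin replicate 2. Its log2 fold change was -0.47 (standard error 0.20, 95% interval -0.95 to 0.01, adjusted p = 0.334 by edgeR). *Erbb2* (chr11:98412470-98437716, plus strand) had a log2 CPM of 6.62, 7.03 and 7.06 in Apc1322T and 6.69, 6.83 and 6.35 in ApcMin adenomas. Its order resembled that of *Erbb3*, with the same library lowest in each genotype, and its log2 fold change was -0.28 (standard error 0.17, 95% interval -0.68 to 0.11). *Egfr* (chr11:16752203-16918158, plus strand), the receptor for all 5 of these ligands, had a log2 CPM of 6.39, 6.10 and 6.30 in Apc1322T and 5.85, 5.91 and 6.28 in ApcMin adenomas. Here Apc1322T replicate 1 was the highest library and ApcMin replicate 3 lay among the Apc1322T libraries, unlike for *Erbb2* and *Erbb3*. Its log2 fold change was -0.24 (standard error 0.14, 95% interval -0.58 to 0.10). *Erbb4*, the remaining receptor, had at most 2 counts in any library, which is under the smallest signal these depths can show (3 counts, or between 0.0838 and 0.143 CPM, for counting error only).

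**Figure D2:**
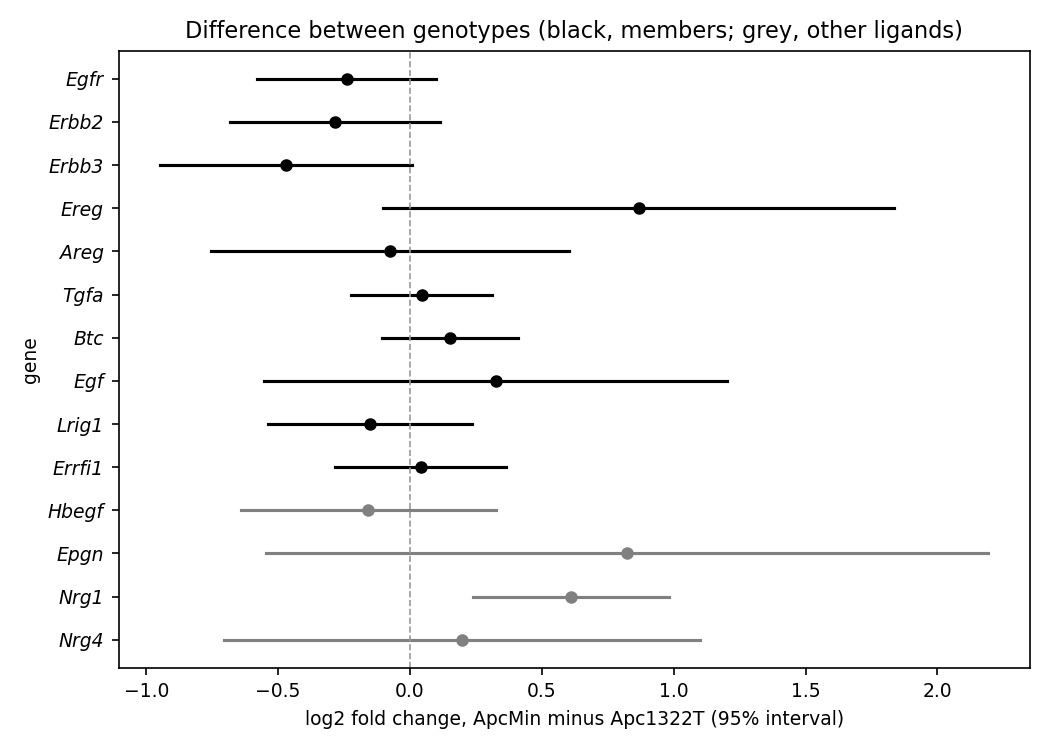
Log2 fold change of ApcMin against Apc1322T adenomas (horizontal axis) with its 95% interval from edgeR's quasi-likelihood fit, for the 10 genes (black) and 4 other tested ligands (grey). All 10 black intervals include 0, and the grey interval of *Nrg1*, from 0.24 to 0.98, does not.

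The inhibitors differed little between the genotypes. *Lrig1* (chr6:94604529-94700158, minus strand) encodes a membrane protein that promotes the removal of ErbB receptors and also marks intestinal stem cells. Its log2 CPM was 7.05, 6.61 and 6.73 in the Apc1322T libraries and 6.87, 6.39 and 6.68 in the ApcMin libraries. In both genotypes replicate 1 was the highest and replicate 2 the lowest, though the labels do not state that these numbers pair the libraries. The genotypes overlapped. The log2 fold change was -0.15 (standard error 0.16, 95% interval -0.54 to 0.24). *Errfi1* (chr4:150853919-150868892, plus strand), whose product binds the kinase domain of Egfr and blocks it, had a log2 CPM of 6.95, 7.13 and 6.98 in Apc1322T and 6.81, 7.04 and 7.30 in ApcMin adenomas. ApcMin libraries were both the highest and the lowest. The log2 fold change of 0.04 (standard error 0.14, 95% interval -0.28 to 0.37) had the opposite sign (-0.09) without ApcMin replicate 3.

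*Errfi1* and *Areg* are shown with their promoters, as they alone of the 8 genes with a RefSeq promoter hold the motifs searched. For 10 promoter windows of these 8 genes, from 250 bases before to 50 bases after a transcript start (RefSeq, GRCm38.p6), the motifs were the TATA box TATAAA, the cAMP response element TGACGTCA, the AP-1 site TGANTCA and the Tcf sites CTTTGAT and CTTTGAA, each on both strands. Matches are in capitals, and none of them overlaps another.
Areg: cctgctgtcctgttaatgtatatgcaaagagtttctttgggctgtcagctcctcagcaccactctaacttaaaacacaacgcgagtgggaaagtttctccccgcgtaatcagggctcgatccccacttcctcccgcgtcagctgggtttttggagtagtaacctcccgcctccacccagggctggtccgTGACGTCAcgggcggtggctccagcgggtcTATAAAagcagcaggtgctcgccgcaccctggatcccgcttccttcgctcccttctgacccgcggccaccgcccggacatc
Errfi1: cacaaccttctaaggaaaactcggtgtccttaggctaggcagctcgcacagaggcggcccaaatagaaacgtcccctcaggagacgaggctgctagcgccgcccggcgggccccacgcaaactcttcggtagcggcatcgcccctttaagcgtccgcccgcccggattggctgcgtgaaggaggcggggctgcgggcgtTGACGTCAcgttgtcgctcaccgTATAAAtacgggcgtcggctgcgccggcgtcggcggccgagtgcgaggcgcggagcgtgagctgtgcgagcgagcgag
The *Areg* window (chr5:91139349-91139648, plus strand) has TGACGTCA starting 61 bases and TATAAA starting 31 bases before the transcript start. The *Errfi1* window (chr4:150854820-150855119, plus strand), at the second of its 2 listed starts, has them at 51 and 28 bases. Among all 32851 promoter windows, TGACGTCA occurs in 1.79%, TATAAA in 13.6% and both in 0.170%. The AP-1 site, in 7.81% of all windows, and the Tcf sites, in 3.73% and 5.14%, occur in none of the 10. The same libraries were highest for both genes, Apc1322T replicate 2 (log2 CPM of 5.40 for *Areg* and 7.13 for *Errfi1*) and ApcMin replicate 3 (5.27 and 7.30). They were also the highest for the ligand *Hbegf* (5.94 and 5.66). The lowest ApcMin library was replicate 2 for *Areg* and replicate 1 for *Errfi1*. The part of the motifs in these levels was not tested. A match of letters is a description and no evidence of binding.

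Levels of different genes were compared per length, as CPM per kb of merged exons. *Erbb3* had the highest median over the 6 libraries (40.6, range 25.7 to 53.5), above 90.5% of the tested genes on the same scale, followed by *Errfi1* (36.0, range 31.2 to 43.9). Next came *Areg* (24.1, range 17.6 to 34.8), *Erbb2* (20.8, range 15.6 to 25.6), *Lrig1* (18.7, range 14.97 to 23.7) and *Ereg* (17.0, range 9.88 to 34.6). Each of these overlapped its neighbour in the order. *Btc* (8.46, range 7.31 to 9.49), *Tgfa* (7.51, range 6.53 to 8.44) and *Egfr* (6.46, range 5.10 to 7.42) again overlapped one another, and all their libraries lay below those of *Ereg*. That gap closes with the longest transcript as the length, which gives *Tgfa* a mean level of 10.8. *Egf* stood apart, at 0.0458 (range 0.0421 to 0.0673), below all but 0.328% of the tested genes. *Areg* and *Ereg* were the ligands with the most RNA per length, and their order depended on the library. In the Apc1322T libraries the level per length was 17.6, 34.8 and 26.1 for *Areg* and 20.1, 9.88 and 13.3 for *Ereg*. In the ApcMin libraries it was 22.1, 20.6 and 31.8 for *Areg* and 34.6, 14.0 and 30.3 for *Ereg*. *Ereg* was thus the higher of the pair in replicate 1 and *Areg* in replicates 2 and 3 of each genotype, narrowly so in ApcMin replicate 3.

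**Figure D3:**
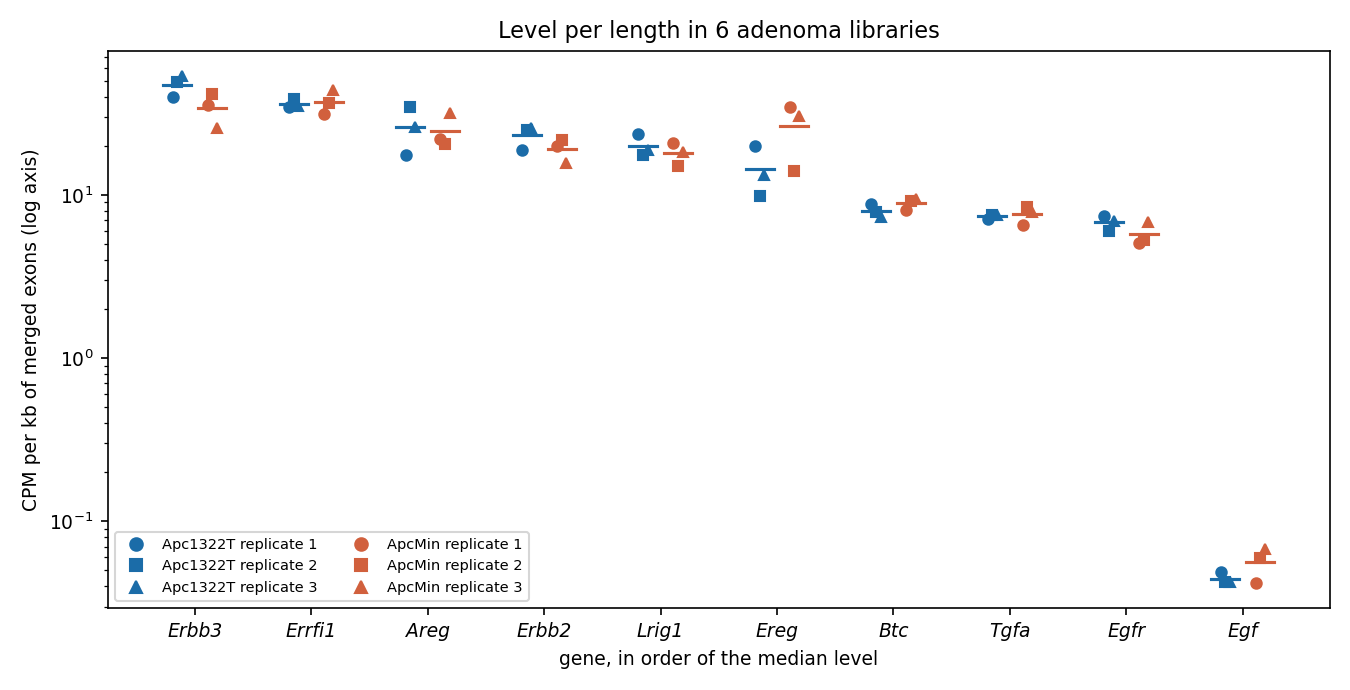
Level per length (CPM per kb of merged exons, log axis) of the 10 genes, in order of the median, with a point per library and a bar at the mean of each genotype. *Erbb3* is first with a median of 40.6, *Egf* is last with 0.0458, and the other neighbours overlap except *Ereg* and *Btc*.

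The samples were whole tissue, in which fewer cells of a type and less RNA per cell cannot be told apart. All 7 epithelial markers, among them *Epcam* and *Vil1*, were detected in every library. Their summed level was 12796, 14604 and 14956 CPM in the Apc1322T and 11038, 12065 and 10466 CPM in the ApcMin libraries, without overlap, and all 7 had a log2 fold change below 0. The sum of 6 fibroblast markers, all 6 with a log2 fold change above 0, was 1523, 604 and 861 CPM in the Apc1322T and 3304, 982.5 and 1438 CPM in the ApcMin libraries, with overlap. *Ereg* and the fibroblast sum had the highest and the lowest library in common. This was not particular to the fibroblast markers, as the endothelial sum given below shared it. The log2 ratio of *Ereg* to the fibroblast sum was -4.20, -3.89 and -3.97 in Apc1322T and -4.53, -4.08 and -3.52 in ApcMin adenomas. Dividing by the sum, which itself differed by 0.85 on the log2 scale, moves every gene alike.

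Smooth muscle, endothelial, and macrophage and neutrophil markers also had log2 fold changes above 0, whereas lymphocyte markers were mixed. All 6 smooth muscle markers had a log2 fold change above 0, and their sum was between 127 and 255 CPM in the Apc1322T and between 276 and 402 CPM in the ApcMin libraries, without overlap. All 5 endothelial markers had one above 0. Their sum was 137, 90.8 and 91.0 CPM in the Apc1322T and 183, 131 and 170 CPM in the ApcMin libraries, with overlap. The order of the 6 libraries by the endothelial sum was the same as by *Ereg*. The 6 macrophage and neutrophil markers, again all above 0, summed to 390 CPM in ApcMin replicate 1, where *Ereg* was also highest. They summed to between 85.9 and 124 CPM in the other libraries, and the lowest of all was ApcMin replicate 2. Of the 5 tested lymphocyte markers, 2 had a log2 fold change above 0. The sum of the lymphocyte list was 502, 383 and 470 CPM in the Apc1322T and 267, 285 and 912 CPM in the ApcMin libraries. The part of any of these markers in the level of *Ereg* was not tested.

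The log2 ratio of *Erbb3* to the epithelial sum was -5.75, -5.62 and -5.54 in Apc1322T and -5.70, -5.59 and -6.08 in ApcMin adenomas. Dividing by the epithelial sum, which differed by -0.33 on the log2 scale, moved the median difference of all tested genes from 0.02 to 0.35. On that scale the difference was -0.15 for *Erbb3*, 0.05 for *Erbb2*, 0.09 for *Egfr*, 0.18 for *Lrig1* and 0.29 for *Areg*, all 5 below the median of all genes, as on the log2 CPM scale. It was 0.36 for *Errfi1*, 0.37 for *Tgfa*, 0.49 for *Btc*, 0.61 for *Egf* and 1.16 for *Ereg*. The libraries of *Tgfa*, *Btc*, *Egf* and *Errfi1* did not overlap on it, with ApcMin higher for all 4. These 4 of 10 genes compare with 36.0% of all tested genes that did not overlap in that direction, a share near that of the group. The part of the epithelial markers in the differences was not tested. Squamous markers (sum of 7, between 6.42 and 8.71 CPM in Apc1322T and between 34.4 and 47.6 CPM in ApcMin adenomas) were also higher in ApcMin adenomas without overlap, all 5 tested members with a log2 fold change above 0. No marker of these lists was at 0 in all libraries.

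**Figure D4:**
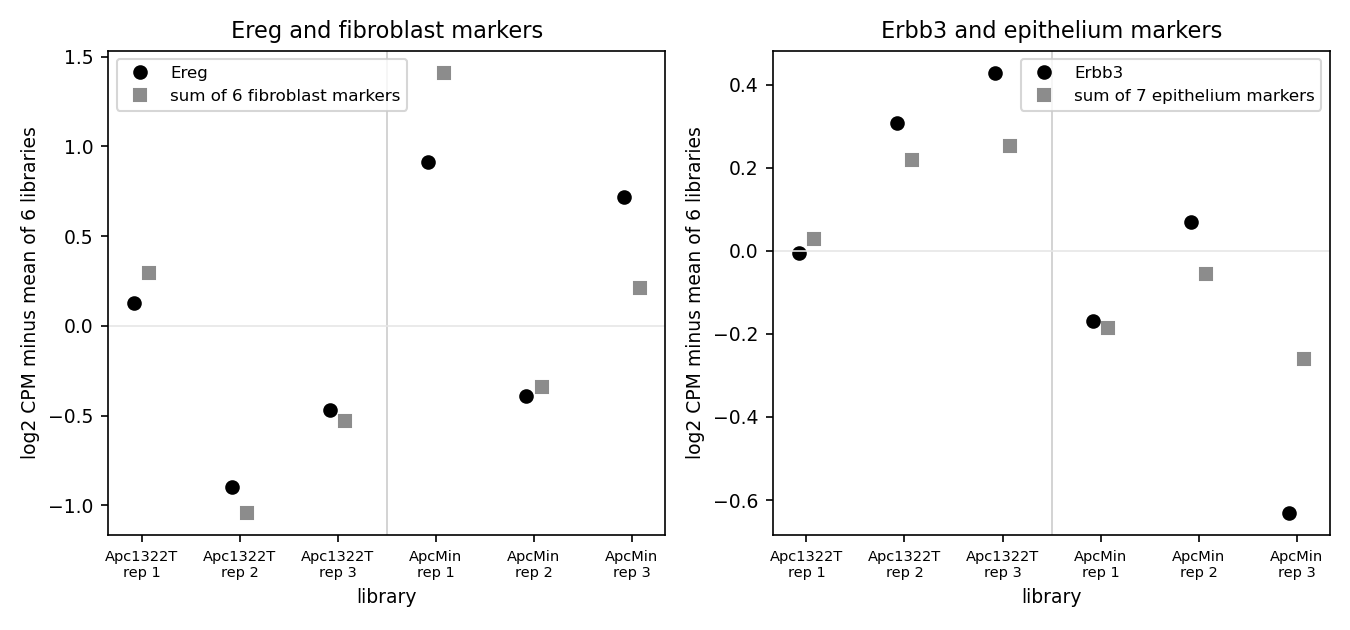
Log2 CPM minus its mean over the 6 libraries (vertical axis) for each library (horizontal axis), with *Ereg* beside the sum of 6 fibroblast markers (left) and *Erbb3* beside the sum of 7 epithelial markers (right). In the left panel both are highest in ApcMin replicate 1 and lowest in Apc1322T replicate 2, and in the right panel both are highest in Apc1322T replicate 3 and lowest in ApcMin replicate 3.

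Likeness over the 6 libraries was measured as the root mean square distance between centred log2 CPM values, for the 3 genes of the group with the largest SD. Nearest to *Ereg* among all tested genes were *Serpina3g*, a serine protease inhibitor gene (0.11), and *Adamts4*, the gene for a secreted metalloprotease (0.12). *Serpina3g* had a log2 CPM of 2.65, 1.77 and 2.21 in Apc1322T and 3.45, 2.28 and 3.57 in ApcMin adenomas, with the lowest ApcMin value again in replicate 2. Nearest to *Erbb3* were *Apba3* (0.040) and *Cdx2* (0.060), which encodes the homeobox factor of intestinal epithelium. *Cdx2* had a log2 CPM of 6.90, 7.20 and 7.24 in Apc1322T and 6.77, 6.84 and 6.19 in ApcMin adenomas. Nearest to *Areg* were *Zfp97* and *Il18bp* (0.10 each). These are the nearest of all tested genes over 6 libraries, and no test was made of them.

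Of 60 further genes of the pathway, 57 were tested, and 30 had a log2 fold change above and 27 below 0 (median 0.010, against 0.017 over all tested genes). None passed an adjusted p of 0.01 in edgeR's test or in DESeq2's, and 7 had an unadjusted p under 0.05 in edgeR's, of which 2 were higher and 5 lower in ApcMin adenomas. Of the 57 genes, 10 did not overlap between the genotypes, against 21.0% of all tested genes. The background is 7.49% of all tested genes higher and 7.60% lower at that p. The count of 7 was 19 without Apc1322T replicate 1 (24.4% of all genes in that fit). It was 4 without Apc1322T replicate 2 (6.92%), Apc1322T replicate 3 (8.63%) or ApcMin replicate 3 (9.87%).

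Among the 6 other ligands, *Nrg1* was the one with an unadjusted p under 0.05. It encodes neuregulin 1, a ligand of Erbb3 and Erbb4. Its log2 CPM was 4.44, 3.93 and 4.40 in the Apc1322T and 4.94, 4.76 and 4.95 in the ApcMin libraries. All ApcMin libraries lay above all Apc1322T libraries, as they did for 11.0% of all genes, and the log2 fold change was 0.61 (standard error 0.16, unadjusted p = 0.00608, adjusted p = 0.268 by edgeR). *Hbegf*, for heparin-binding EGF, had between 1000 and 1596 counts and a log2 fold change of -0.16 (95% interval -0.64 to 0.33). *Nrg4* had between 57 and 145 counts and a log2 fold change of 0.20 (95% interval -0.71 to 1.10). *Nrg2*, with at most 14 counts, and *Nrg3*, with at most 2, were too low to be tested. *Adam17*, the main sheddase of Egfr ligands, had a log2 fold change of -0.09 (95% interval -0.38 to 0.21). *Frmd8*, picked out after its values had been seen, keeps the Adam17 complex stable and had a log2 fold change of -0.47 (unadjusted p = 0.0292, adjusted p = 0.308 by edgeR), with overlapping libraries.

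The other receptor inhibitors held 2 genes at an unadjusted p under 0.05 in edgeR's test of 9 tested, against 15.1% of all tested genes. Both encode Cbl ubiquitin ligases, which tag activated ErbB receptors for degradation. *Cblc*, of epithelia, had a log2 CPM of 6.55, 6.54 and 6.44 in the Apc1322T and 6.16, 6.01 and 6.12 in the ApcMin libraries. *Cblb* had 6.17, 6.12 and 6.05 against 5.82, 5.54 and 5.71. Neither overlapped between the genotypes, as for 9.96% of all genes in this direction. The log2 fold change was -0.41 for *Cblc* (standard error 0.081) and -0.42 for *Cblb* (standard error 0.096), each with an adjusted p of 0.257 by edgeR and of 0.0111 and 0.0406 in DESeq2's Wald test. *Cbl* itself, with a log2 fold change of 0.07 (standard error 0.15), overlapped, and was likewise picked out with its values known.

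Of the 22 adaptor and Ras-MAPK and PI3K genes, 8 had a log2 fold change above and 14 below 0, between -0.33 and 0.18. Of these 22 genes, 2 had an unadjusted p under 0.05 in edgeR's test, against 15.1% of all tested genes. They were *Map2k2* (-0.33, standard error 0.096) and *Map2k1* (-0.22, standard error 0.090), which encode the kinases that activate Erk. Neither overlapped between the genotypes, as for 9.96% of all tested genes in this direction. Of the 16 feedback and immediate response genes, which Erk signalling is known to induce, 12 had a log2 fold change above and 4 below 0, with a median of 0.21. Over all 16536 tested genes, 8661 had a log2 fold change above 0, with a median of 0.017. Of the 16 genes, only *Spry1*, an inhibitor of Ras signalling, had an unadjusted p under 0.05 in edgeR's test, against 15.1% of all tested genes. Its log2 CPM was 4.40, 3.97 and 4.07 in the Apc1322T and 4.49, 4.54 and 4.99 in the ApcMin libraries, and the log2 fold change came to 0.53 (standard error 0.18, adjusted p = 0.289 by edgeR). The libraries lay apart by the small margin between Apc1322T replicate 1 and ApcMin replicate 1.

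**Figure D5:**
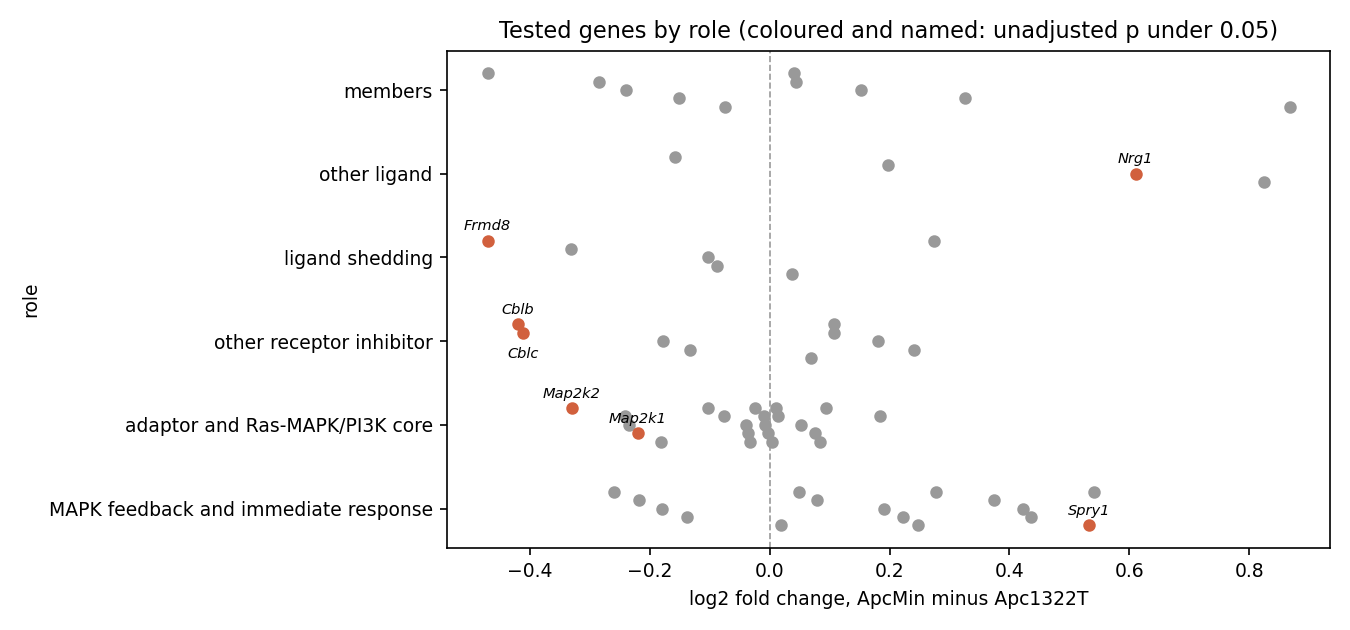
Log2 fold change of ApcMin against Apc1322T adenomas (horizontal axis) for each tested gene of the group and of the wider pathway, in rows by role (vertical axis), with genes at an unadjusted p under 0.05 coloured and named. None of the 10 members is coloured, and the 7 coloured genes lie between -0.47 and 0.61.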

How the data were processed

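RNA of adenomas from ApcMin and Apc1322T mice was sequenced in 6 libraries, 3 per genotype by the labels. From 1 μg of total RNA per sample, stranded single-end reads of 50 bases were quantified by the authors with Salmon on GRCm38, and the deposited values are unnormalised estimated counts of genes. These were rounded here and came to between 23132461 and 33518324 per library. GENCODE M21 gave symbols and exon lengths for 34652 of 34866 genes.

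Genes passing filterByExpr (minimum count 10, minimum total 15) were scaled by TMM and tested in edgeR 4.0.16 (R 4.3.3, robust quasi-likelihood fit, standard errors derived from the F statistic) with Benjamini-Hochberg adjustment at 0.01, the study's threshold. DESeq2 1.42.0, the study's tool, and limma-voom (3.58.1) were alternatives. Log2 CPM used a prior count of 2. The labels do not state that libraries come from separate mice, so that p-values measure the spread between these samples. The fits were tested on simulated counts.

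Named are the 10 members, the other ligands and receptors, *Adam17*, pathway genes with an unadjusted p under 0.05 and no overlap, and the 2 nearest genes of the 3 members with the largest SD. The members and lists were chosen with earlier results of these data known, and the scales relative to markers after seeing the data.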

Additional observations from a re-analysis of the deposited data

How the results depend on the processing

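No alternative brought any of the 10 genes to an adjusted p under 0.01 or, in edgeR's test, under 0.05. The smallest adjusted p of the 10 over all the fits was 0.178, for *Erbb2* without Apc1322T replicate 1. The count of the 10 genes at an unadjusted p under 0.05 was 0. It became 2 with DESeq2's Wald test (11.5% of 25171 genes) and 1 with limma-voom (14.0% of 16536 genes). It was 1 without a filter on low counts (10.8% of 25226 genes), and between 0 and 3 with each library left out. For the other pathway genes the count of 7 was between 4 and 19 with each library left out, and the 19 included all 7. In the fits without a library, between 6.92% and 24.4% of all genes reached that p. With the replicate number as a block, the count for the 10 genes was 1 (*Ereg*, unadjusted p = 0.00346, adjusted p = 0.348 in edgeR's test) and for the other pathway genes 5, against 12.8% of all genes. The labels do not say whether same-numbered libraries share more than a number. The correlations of their deviations from the genotype means were -0.014, 0.16 and -0.29, which cannot settle whether they were paired. With each library left out, the log2 fold change of *Areg* was between -0.29 and 0.18, with its direction turned without Apc1322T replicate 2 (0.18), ApcMin replicate 1 (0.0025) and ApcMin replicate 2 (0.042). That of *Tgfa* was between -0.037 and 0.14, turned without ApcMin replicate 2, and that of *Errfi1* between -0.093 and 0.15, turned without ApcMin replicate 3. The cause was not tested. Relative to the summed epithelial markers, *Egfr* (0.088), *Erbb2* (0.050), *Areg* (0.29) and *Lrig1* (0.18) came to lie above 0 by construction, since that scale moves all genes alike, and stayed below the median of all tested genes on it (0.35). With the longest transcript as length, mean levels per kb moved to 10.8 for *Tgfa*, 9.50 for *Btc*, 0.119 for *Egf* and 43.3 for *Errfi1*, so that *Errfi1* came before *Erbb3*. *Egf* was not tested at a minimum count of 50. The 95% interval from 3 libraries a genotype leaves room for a difference of over 1.5-fold for *Ereg*, *Areg*, *Erbb2*, *Erbb3* and *Egf*.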
